A study of Mus musculus with 4 samples.

Results

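Interstitial macrophages are the macrophages of the lung's septal and perivascular tissue, as opposed to the alveolar macrophages that lie in the airspaces. Of 9363 cells sequenced from the lungs of 4 mice, 57 were taken as interstitial macrophages, chosen by their measured transcript counts. A member had at least 10 unique molecular identifiers (UMIs, 1 per captured transcript) summed over C1qa, C1qb and C1qc, at least 1 UMI of Csf1r, and at most 2 of the alveolar macrophage genes Ear1, Marco, Atp6v0d2, Plet1, Krt79 and Fabp1 detected. It had 0 UMIs of Cd3e, Cd79a and Cdh5, which mark T cells, B cells and endothelium. WT 1 held 11 members, WT 2 held 8, ERG CKO 1 held 26 and ERG CKO 2 held 12.

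All 4 mice were C57/BL6 mice with Erg fl/fl alleles, in which exons of the gene for the endothelial transcription factor ERG are flanked by loxP sites. WT mice carried these alleles without Cre, and ERG CKO mice also carried CDH5-CreER(T), a tamoxifen-dependent Cre driven in endothelium, so the macrophages described here lay outside the cells in which Cre was driven. The protocol gave 5 injections of 0.5 mg tamoxifen, and lungs were taken 90 days after the last one, without bleomycin injury; the age of these mice is not given in the sources used here. Each library was 1 mouse, the digested lung was not sorted, and the comparison asked what had changed in lung cells after loss of endothelial ERG.

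Interstitial macrophages take up dying cells and debris, produce complement component C1q, and present antigen on major histocompatibility complex (MHC) class II molecules. They depend on signalling through CSF1R, the receptor for colony-stimulating factor 1, and are replenished in part from blood monocytes. In mouse lung they are commonly divided into cells with LYVE1, FOLR2 and CD163, often found along vessels, and cells with high MHC class II, often found in the septa.

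C1q is assembled from 3 chains, encoded by neighbouring genes on chromosome 4 that are transcribed on the minus strand. In RefSeq on GRCm38.p6, C1qb spanned positions 136880126 to 136886200, C1qc 136889801 to 136892936 and C1qa 136895916 to 136898844. The upstream sequences of C1qb (chr4:136886201-136886450) and C1qc (chr4:136893065-136893164) are shown because C1q transcripts chose the members. They are read 5′ to 3′ on the minus strand, and capitals mark a match to GAGGAAG, a core motif of the macrophage factor PU.1, which lies on the opposite strand and so reads CTTCCTC here.
C1qb: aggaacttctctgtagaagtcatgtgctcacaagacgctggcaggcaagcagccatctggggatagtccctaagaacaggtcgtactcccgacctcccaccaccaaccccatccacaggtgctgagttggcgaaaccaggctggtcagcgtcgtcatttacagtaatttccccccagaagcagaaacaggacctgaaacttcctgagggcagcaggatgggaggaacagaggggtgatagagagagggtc
C1qc: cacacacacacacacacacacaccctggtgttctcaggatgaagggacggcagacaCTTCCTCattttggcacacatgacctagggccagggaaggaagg
The C1qc window held 1 such match, at bases 57 to 63 of the 100 shown, and the 250 bases of C1qb held none. GAGGAAG was found on either strand in 13.6% of 32851 RefSeq promoter windows. C1qa had no entry.

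The minimum of 10 C1q UMIs kept 100 cells, 13 and 10 in the WT libraries and 54 and 23 in the ERG CKO libraries. Of these 100 cells, 72 had a Csf1r UMI, none was removed by the limit on alveolar genes, and 15 were removed for a lineage gene. Those 15 cells came from WT 1 (2), ERG CKO 1 (9) and ERG CKO 2 (4), and 12 of them carried Cdh5. Another 19 cells were left out only because no Csf1r UMI was seen, 0 and 2 in the WT libraries and 12 and 5 in the ERG CKO libraries. Their median depth was 1053 UMIs against 7768 in the members. The Csf1r requirement and the lineage genes therefore removed more cells from the ERG CKO libraries than from the WT libraries.

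Within the members, summed C1q ranged from 13 to 362 UMIs with a median of 75. The cells just inside the limit held 13, 13, 14, 14 and 14 C1q UMIs, and 9 of the 10 members with under 20 came from ERG CKO 1. The 5 cells just outside, with 5 to 9 C1q UMIs, held 7, 8, 8, 8 and 9. No member was called a doublet, and no member shared a cell barcode with another library.

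**Figure D1:**
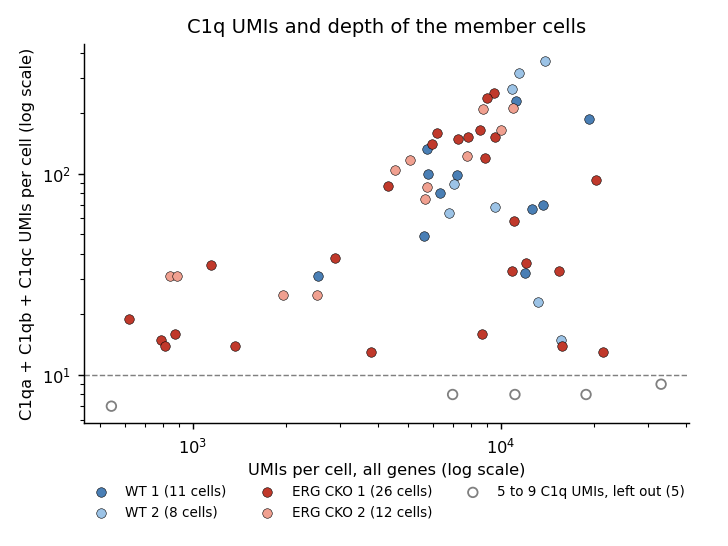
Each filled point is 1 of the 57 member cells, placed by its total UMIs (x, log scale) and its summed C1qa, C1qb and C1qc UMIs (y, log scale); open circles are the 5 cells with 5 to 9 C1q UMIs that were left out, and the dashed line is the limit of 10. The 6 members under 1000 UMIs all come from ERG CKO libraries, 4 from ERG CKO 1 and 2 from ERG CKO 2.

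The members summed to 101932 UMIs in WT 1, 88238 in WT 2, 204848 in ERG CKO 1 and 64579 in ERG CKO 2, so 1 UMI was worth between 4.88 and 15.5 CPM (a gene's UMIs scaled to 1e+06 member UMIs of that library). Median depth per member was 7200, 11108, 8183.5 and 5354.5 UMIs in that order. Over 10% mitochondrial UMIs were found in 3 members, all from ERG CKO 1. Erg had 0 UMIs in the members of every library. In cells with Cdh5 and without Ptprc, Erg stood at 90.02 and 83.2 CPM in WT and at 102 and 82.3 CPM in ERG CKO, and gene-level counts do not show whether the floxed exons were absent. Replicate 1 of both groups had Xist and replicate 2 of both had Y-linked transcripts, so sex was balanced between the groups.

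Members made up 0.486% of cells in WT 1 (95% Wilson interval 0.272 to 0.868), 0.372% in WT 2 (0.189 to 0.733), 0.840% in ERG CKO 1 (0.574 to 1.23) and 0.648% in ERG CKO 2 (0.371 to 1.13). Both ERG CKO libraries lay above both WT libraries. The share was 0.429% ± 0.0804 in WT and 0.744% ± 0.135 in ERG CKO (SD, n = 2), a difference of 0.315 percentage points with an exact two-sided permutation p of 0.333, which is the smallest that 2 against 2 can give. Among cells with a Ptprc UMI, the pan-leukocyte gene for CD45, the groups overlapped, with WT libraries at 0.864% and 0.756% and ERG CKO libraries at 1.49% and 0.803% (exact permutation p = 0.667, n = 2). The Wilson intervals cover counting error only, and in a share of cells a rise of 1 cell type cannot be told apart from a loss of others.

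The order of the libraries was the same, with a wider gap, when C1q alone was asked for: WT libraries lay at 0.574% and 0.465%, and ERG CKO libraries at 1.74% and 1.24%. With at least 20 C1q UMIs the difference was 0.193 percentage points, and with the cells lacking Csf1r kept it was 0.597. Alveolar macrophages, taken as cells with at least 3 of the 6 alveolar genes, made up 8.13% and 5.49% of the WT cells against 4.71% and 6.64% of the ERG CKO cells, which overlapped. Non-classical monocytes also overlapped, at 3.05% and 6.74% against 6.26% and 6.16%. Classical monocytes stood lower in ERG CKO, at 0.775% and 1.188% against 1.193% and 2% (exact permutation p = 0.333, n = 2), with ERG CKO 2 and WT 1 nearly equal. Before a Csf1r UMI was asked for, this class held 43 of 2264 and 62 of 2150 cells in WT. In ERG CKO it then held 36 of 3097 and 45 of 1852 cells, and these shares overlapped between the groups.

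**Figure D2:**
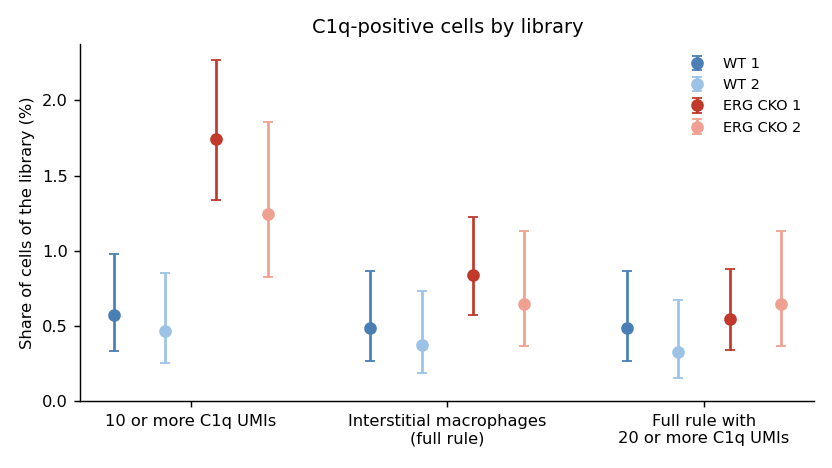
Share of each library's cells (y, percent) that had 10 or more C1q UMIs, that met the full rule, and that met it with 20 or more C1q UMIs; points are libraries and bars are 95% Wilson intervals, which cover counting error only. Both ERG CKO libraries lie above both WT libraries in all 3 sets. The bars of ERG CKO and WT overlap in each set, except those of ERG CKO 1 for 10 or more C1q UMIs.

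The label was then checked against marker genes, as a description, since the rule had used these cells' transcripts. Apoe, which encodes the lipid carrier apolipoprotein E and was not part of the rule, was detected in 47 of the 57 members and stood at 16854, 11095, 14884 and 27532 CPM in WT 1, WT 2, ERG CKO 1 and ERG CKO 2. In alveolar macrophages of the same libraries it stood at 20.1 to 102 CPM, and in non-classical monocytes at 2647 to 4406 CPM. Ms4a7 ranged from 324 to 1394 CPM in members and did not pass 25.6 CPM in any library of the other 3 classes. Cx3cr1, the fractalkine receptor, ranged from 249 to 945 CPM in members against 0.467 to 4.2 CPM in alveolar macrophages. It did not set members apart from monocytes, since it was detected in 59.6% of members, 74.7% of non-classical and 68.1% of classical monocytes.

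Members were chosen for C1q and both monocyte classes were limited to at most 2 C1q UMIs, so C1q is no check against monocytes. Alveolar macrophages carried no such limit, and C1qb was detected in 0.876% of 571 of them. Alveolar macrophages and non-classical monocytes had median depths of 15085.5 to 17143 and 5573 to 6420.5 UMIs per library. Of the alveolar genes in the rule, Ear1, Plet1, Krt79 and Fabp1 had 0 UMIs in members, Marco had 1 and Atp6v0d2 had 6, and 54 of 57 members had no alveolar gene. Of 16 alveolar macrophage markers, 8 were at 0 in the members of every library, and the summed list stood at 201 to 513 CPM against 22900 to 28200 CPM in alveolar macrophages. That list holds genes of the rule, which also chose the alveolar class, so the gap was in part set by the selection. The 12 classical monocyte markers summed to 449 to 2190 CPM in members and to 10400 to 15600 CPM in classical monocytes. Alveolar macrophages summed to 13400 to 17100 CPM on the same list, so its sum does not mark monocytes alone. Markers of T and NK cells summed to between 19.5 and 567 CPM, with 7 of 12 at 0 in every library and the highest value in WT 2.

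**Figure D3:**
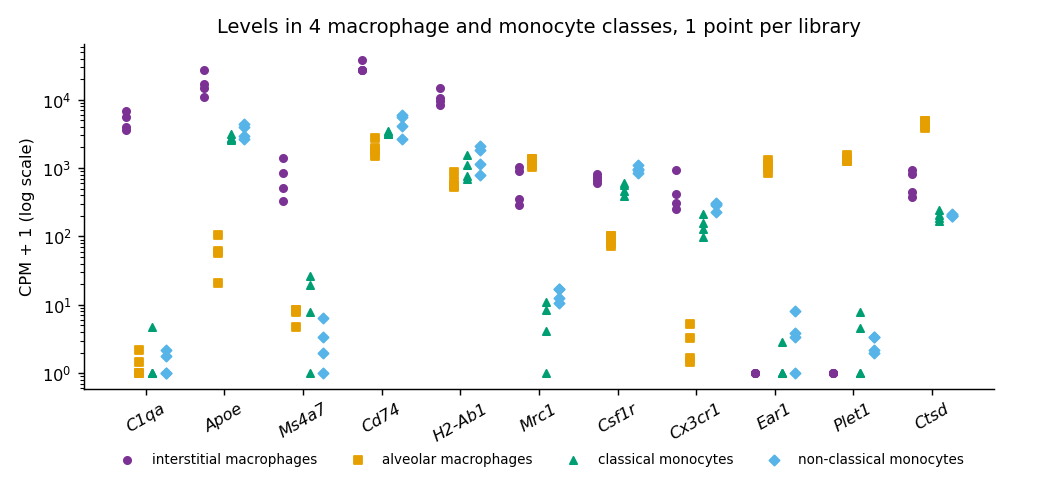
Level of 11 genes (y, CPM + 1, log scale) in interstitial macrophages, alveolar macrophages, classical monocytes and non-classical monocytes, with 1 point for each of the 4 libraries. C1qa, Apoe, Ms4a7 and Cd74 are highest in interstitial macrophages in every library, while Ear1, Plet1 and Ctsd are highest in alveolar macrophages. C1qa, Ear1 and Plet1 were used to choose these classes, so their order was in part set by the selection.

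The antigen presentation genes were the most abundant group that the rule had not used. Cd74, the invariant chain that guides MHC class II through the cell, stood at 26832, 27324, 26971 and 38527 CPM in members and at 1508 to 2730 CPM in alveolar macrophages. H2-Ab1, a class II beta chain, stood at 9428, 8443, 10452 and 14835 CPM against 523 to 876 CPM in alveolar macrophages. The 12 genes of the MHC class II list summed to 56300 to 84800 CPM in members, to 5170 to 12500 CPM in non-classical monocytes and to 3590 to 5890 CPM in alveolar macrophages. Not every member was rich in them: 10 of 57 held 5 or fewer Cd74 UMIs, at a median depth of 9122.5 UMIs, and 5 of those 10 had a UMI of Fabp4, a fatty acid binding protein that 63.0% of alveolar macrophages and 68.4% of non-classical monocytes also showed.

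Genes of uptake and lysosomal handling followed several patterns. Mrc1, the mannose receptor, stood at 284, 1020, 347 and 898 CPM in members, below its 1040 to 1349 CPM in alveolar macrophages and above its 9.60 to 16.3 CPM in non-classical monocytes. Ctsd, a lysosomal protease, stood at 932, 805, 371 and 449 CPM in members against 3913 to 4942 CPM in alveolar macrophages. In WT 1, 81 of its 95 UMIs came from a single member. Ctss, a protease that trims the invariant chain, stood at 2187 to 3577 CPM in members and at 2439 to 2999 CPM in alveolar macrophages, which overlapped. The iron storage genes Fth1 and Ftl1 overlapped between these classes as well.

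The chains of C1q were read in nearly constant proportion in the 4 libraries. C1qa gave 37.6%, 41.1%, 35.5% and 37.0% of C1q UMIs, C1qb 38.8%, 33.0%, 39.1% and 38.0%, and C1qc 23.6%, 25.9%, 25.4% and 24.96%. Summed C1q stood at 10546 and 13600 CPM in WT and at 10134 and 18613 CPM in ERG CKO, so the groups overlapped. The values of each chain overlapped too, and the fitted log2 fold change of C1qb, ERG CKO over WT, was 0.44 (SE 0.34). These 3 genes chose the cells, and their levels are given without a test.

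The members differed among themselves. Cells with transcripts of at least 2 of Lyve1, Folr2, Cd163, Fcna and Timd4, genes of the perivascular type, numbered 6: none of 11 in WT 1, 2 of 8 in WT 2, 3 of 26 in ERG CKO 1 and 1 of 12 in ERG CKO 2. They held a median of 245.5 C1q UMIs, 385.5 Apoe UMIs, 28 Pf4 UMIs and 29.5 Cd74 UMIs, and none had Ccr2, the receptor by which monocytes are recruited. The other members held a median of 67 C1q UMIs. The mean share was 12.5% in WT and 9.94% in ERG CKO, a difference of -2.56 percentage points (exact two-sided permutation p = 1, n = 2), and it turned to 9.94 without WT 2. A count of 0 of 11 in WT 1 allows a share of up to 27.3% of cells with these transcripts detected, not of cells that express them. With each cell thinned to 1000 UMIs the share was 6.25% in WT and 0% in ERG CKO.

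Cd209a, a C-type lectin gene of monocyte-derived and dendritic cells, was seen in 6 members, which came from all 4 libraries. All 6 also had Mgl2, 5 had Ccr2, and their median counts were 45 C1q, 0 Apoe and 648.5 Cd74 UMIs. Flt3, the growth factor receptor of dendritic cells, was seen in 1 of them. Plac8, a monocyte gene, had at least 4 UMIs in 5 other members, of which 4 had Ccr2; no member held both Cd209a and Plac8. Of the 12 dendritic cell markers, 5 were at 0 in every library's members, and the list summed to 1060 and 1210 CPM in WT and to 1480 and 341 CPM in ERG CKO. It summed to 498 to 531 CPM in alveolar macrophages, 225 to 464 CPM in classical and 91.2 to 395 CPM in non-classical monocytes. No class of dendritic cells was compared. The lowest sums of dendritic and of classical monocyte markers were both in ERG CKO 2, and their part in the differences between groups was not tested.

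Ms4a7 was seen in 40 members and in 13.8% of classical and 1.72% of non-classical monocytes. Pf4 was seen in 43 members, in 30.2% of classical and in 5.75% of non-classical monocytes. Ccr2 was seen in 21 and Mgl2 in 31. Spic, a factor of iron-recycling macrophages, was seen in 9 members, of which 6 also had Slc40a1, the iron exporter ferroportin. These subsets overlap, and no gene that separates them was tested between them.

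Single cells carried much of the signal of some secreted factors. Cxcl13, a B cell attracting chemokine, stood at 4111, 102, 254 and 31.0 CPM, and 85.9% of its UMIs came from 1 cell of WT 1. Cxcl1, a neutrophil attracting chemokine, had 139 of its 151 UMIs in 1 cell of ERG CKO 1. Cxcl2, of the same family, had 606, 178, 881 and 1 UMIs in WT 1, WT 2, ERG CKO 1 and ERG CKO 2, and at least 10 UMIs in 8, 2, 8 and 0 members. Neither group was uniform in Cxcl2, since ERG CKO 2 had nearly none of it, and ERG CKO 1, once scaled to depth in CPM, lay between the WT libraries.

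ERG CKO was then compared with WT over member UMIs summed per library with edgeR's quasi-likelihood test. Of 1406 genes with enough counts, none passed an adjusted p of 0.05 after Benjamini-Hochberg adjustment, so 0% were called in either direction, and the smallest adjusted p was 0.195. DESeq2 called 2 of 11150 genes (0.0179%), Ccl3 (adjusted p = 0.00477) and Ccl4 (adjusted p = 0.0116), both higher in ERG CKO. Replicate 1 and replicate 2 also differed in sex, and with the replicate number as a term edgeR called 17 genes (1.21%), 9 higher and 8 lower, a fit that left 1 degree of freedom. Its adjusted p was 2.93e-07 for Ccl3, 6.34e-09 for Ccl4 and 0.000525 for Vcam1, all higher. The same fit called Cxcl13 (adjusted p = 4.91e-08) and Cxcl2 (adjusted p = 2.69e-05) lower. A single cell of WT 1 held 85.9% of the Cxcl13 UMIs, and Cxcl2 overlapped between the groups. At an unadjusted p under 0.05, edgeR gave 63 genes (4.48%), 46 higher in ERG CKO (3.27%) and 17 lower (1.21%). Both ERG CKO libraries lay above both WT libraries for 15.5% of the genes tested and below for 17.6%. On simulated counts of the same size the test recovered 105 of 197 genes changed 4-fold and 198 of 199 changed 8-fold. The simulation gave every gene the same dispersion, so these rates may be too high for genes whose UMIs lay in few cells. They do not show that larger changes were absent. The count depended on single mice: leaving out WT 1, WT 2, ERG CKO 1 or ERG CKO 2 gave 12, 0, 40 and 9 calls.

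The 10 genes with the smallest unadjusted p are given with their values; edgeR called none of them and DESeq2 called Ccl3 and Ccl4. The first was Ccl3, a chemokine that attracts monocytes and other leukocytes, which stood at 29.4 and 56.7 CPM in WT and at 747 and 604 CPM in ERG CKO. Its log2 fold change, ERG CKO over WT, was 4.02 (SE 0.48; edgeR adjusted p = 0.195), with 3 and 5 UMIs in the WT libraries against 153 and 39 in the ERG CKO libraries. At least 10 Ccl3 UMIs were found in 6 members, 4 in ERG CKO 1 and 2 in ERG CKO 2. These 6 cells held a median of 158.5 C1q and 324.5 Apoe UMIs, and each had Cx3cr1, Ms4a7 and Pf4.

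Ccl4, a neighbouring chemokine of the same family, stood at 0 and 22.7 CPM in WT and at 932 and 310 CPM in ERG CKO (log2 fold change 5.81, SE 0.99; edgeR adjusted p = 0.495). Its highest cell, in ERG CKO 1, gave 44.1% of its UMIs, and 10 members had both Ccl3 and Ccl4. On chromosome 11 the annotated span of Ccl4 (83648624 to 83664683) overlaps that of Ccl3 (83647843 to 83649378). Whether transcripts from the shared stretch were counted to the other gene was not tested, so the 2 may not be independent readings. Ccl3 without Ccl4 was seen in 9 members, and Ccl4 without Ccl3 in 5. Ccl3 in the other classes stood at 85.2 to 249 CPM in alveolar macrophages and 60.5 to 95.2 CPM in non-classical monocytes, so WT members lay below and ERG CKO members above those classes.

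Vcam1, an adhesion molecule of macrophages that retain iron and clear red cells as well as of endothelium, stood at 108 and 181 CPM in WT and at 932 and 650 CPM in ERG CKO. The groups did not overlap (log2 fold change 2.52, SE 0.43; edgeR adjusted p = 0.495). Slc40a1, the ferroportin gene, stood at 9.81 and 22.7 CPM in WT and at 190 and 805 CPM in ERG CKO (log2 fold change 4.90, SE 1.06; edgeR adjusted p = 0.868). WT members held 1 and 2 Slc40a1 UMIs, and 1 cell of ERG CKO 2 held 32 of the 94 in the 4 libraries. H2-M2, a non-classical MHC class I gene, stood at 9.81 and 34 CPM in WT and at 137 and 1099 CPM in ERG CKO. ERG CKO 2 stood well above ERG CKO 1, and the log2 fold change was 4.83 (SE 1.30; edgeR adjusted p = 0.902), which fell to 2.64 without ERG CKO 2 and was 5.72 without ERG CKO 1.

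Hes1, a target of Notch signalling, stood at 58.9 and 22.7 CPM in WT and at 220 and 232 CPM in ERG CKO (log2 fold change 2.46, SE 0.60; edgeR adjusted p = 0.902). Hspa1b, an inducible heat shock protein whose transcripts are hard to tell from those of its near-identical neighbour Hspa1a, stood at 19.6 and 22.7 CPM in WT and at 146 and 201 CPM in ERG CKO (log2 fold change 2.995, SE 0.62). Both ERG CKO libraries lay above both WT libraries for all 7 of these genes.

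The other 3 lay lower in ERG CKO. Phlda1, an early response gene, stood at 304 and 113 CPM in WT and at 14.6 and 0 CPM in ERG CKO, where 3 and 0 UMIs were counted (log2 fold change -4.14, SE 0.91; edgeR adjusted p = 0.868). Ccl8, a chemokine of tissue macrophages, stood at 216 and 125 CPM in WT and at 29.3 and 31.0 CPM in ERG CKO. However, its 22 UMIs in WT 1 all came from 1 cell, and 10 of its 11 UMIs in WT 2 came from 1 cell. Fcrls, an Fc receptor-like gene of resident macrophages, stood at 236 and 374 CPM in WT and at 92.8 and 61.9 CPM in ERG CKO (log2 fold change -1.84, SE 0.48; edgeR adjusted p = 0.902).

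For 3 of the 10 genes 1 group held 3 UMIs or fewer, so the ratio of UMIs summed over each group, scaled to depth, is given with its exact 95% interval, which covers counting error only. The ratio of ERG CKO to WT was 74.5 for Ccl4 (20.4 to 619), with 2 UMIs in WT and 211 in ERG CKO. It was 21.4 for Slc40a1 (7.1 to 106), with 3 UMIs in WT, and 0.0516 for Phlda1 (0.0102 to 0.162), with 3 UMIs in ERG CKO. The fitted log2 fold changes of these genes rest on those few counts. Over the alternative settings they ran from 4.8 to 9.3 for Ccl4, from 3.52 to 5.66 for Slc40a1 and from -7.16 to -3.77 for Phlda1.

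**Figure D4:**
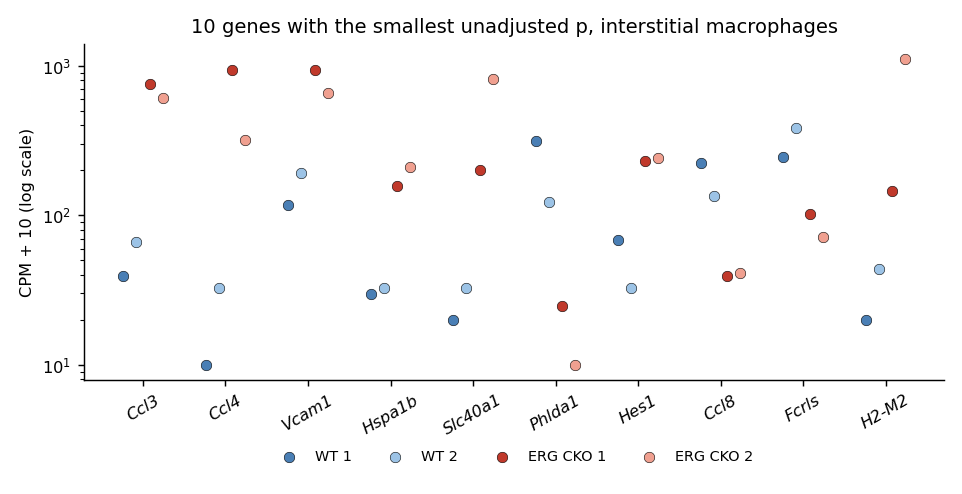
Level of the 10 genes with the smallest unadjusted p (y, CPM + 10, log scale), 1 point for each library. The groups do not overlap for any of the 10, which follows in part from choosing them by p, and none passed the adjusted threshold in edgeR, while Ccl3 and Ccl4 passed it in DESeq2.

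**Figure D5:**
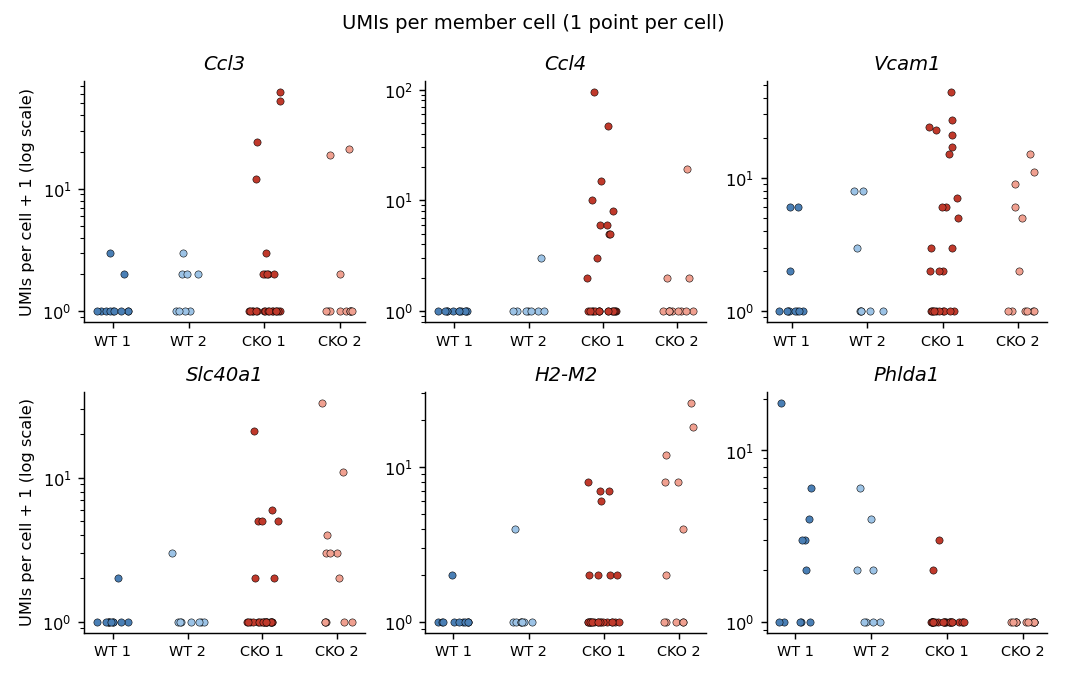
UMIs + 1 per member cell (y, log scale) for Ccl3, Ccl4, Vcam1, Slc40a1, H2-M2 and Phlda1 in each library; each point is 1 cell, shifted sideways to limit overlap. Vcam1 has a UMI in 16 of the 26 cells of ERG CKO 1 and 6 of the 12 of ERG CKO 2, and H2-M2 in 8 and 7. Some cells of both WT libraries also hold UMIs of these genes.

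Across the gene lists edgeR called no gene, and DESeq2 called Ccl3 and Ccl4 of the chemokine list, so each list is described by its counts of genes whose ERG CKO libraries lay above or below both WT libraries, to be read against 15.5% and 17.6%, and by its median, to be read against 0.017 over all 1406 genes. Of the 9 tested complement genes, 1 lay above without overlap and none below, with a median log2 fold change of 0.28. The list holds the 3 C1q genes of the rule, and the other 6 had a median of 0.24. Itgb2, the beta chain of complement receptors 3 and 4, was that gene, at 226 and 306 CPM in WT and 483 and 310 CPM in ERG CKO (log2 fold change 0.66, SE 0.40).

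Of the 16 tested genes of scavenging and efferocytosis, the uptake of dying cells, 6 lay above without overlap and none below, with a median of 0.77. Fcgr3, an activating Fc receptor, stood at 569 and 533 CPM in WT and at 771 and 1301 CPM in ERG CKO (log2 fold change 0.98, SE 0.41). Mertk, a receptor for phosphatidylserine on dying cells, stood at 98.1 and 56.7 CPM in WT and at 146 and 217 CPM in ERG CKO (log2 fold change 1.21, SE 0.56). Clec4n and Cd300a had unadjusted p-values under 0.05 in edgeR, 0.0423 and 0.0326, and an adjusted p of 0.956 each.

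Of 8 tested MHC class II genes, 3 lay above and none below, with a median of 0.38. H2-Ab1 had a log2 fold change of 0.57 (SE 0.26) and H2-Eb1 of 0.34 (SE 0.24), whereas Cd74 overlapped between the groups (0.35, SE 0.24). The highest class II sum, 84800 CPM, was in ERG CKO 2, which also had the lowest interferon-stimulated sum at 1900 CPM. ERG CKO 1, at 60100 CPM, lay much closer to the WT libraries, at 58000 and 56300 CPM.

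Cytokine and inflammasome genes showed the lowest list median, -0.97 over 9 tested genes, with 4 below and none above. Nfkbia, the NF-κB inhibitor that NF-κB itself induces, stood at 2070 and 1745 CPM in WT and at 1367 and 496 CPM in ERG CKO (log2 fold change -0.97, SE 0.46). Socs3, a feedback inhibitor of cytokine signalling, stood at 814 and 737 CPM in WT and at 405 and 124 CPM in ERG CKO (log2 fold change -1.44, SE 0.54; edgeR adjusted p = 0.956). Il1b overlapped, at 2649 and 725 CPM against 737 and 542 CPM. Cd14, the lipopolysaccharide co-receptor from the receptor list, stood at 4189, 1451, 1006 and 1192 CPM, with WT 1 far above the other 3 libraries.

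The list of genes induced by tissue dissociation had 18 tested members, 4 above and 2 below with a median of 0.19, and its sum was 21000 CPM in WT 1, 12400 in WT 2, 18100 in ERG CKO 1 and 17000 in ERG CKO 2. Fos overlapped, at 2109 and 1043 CPM against 2055 and 2230 CPM. The dissociation genes, whose sums overlapped between the groups, and the cytokine genes were both highest in WT 1. Whether handling contributed to the cytokine values was not tested.

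The chemokine list had 12 tested genes, 2 above (Ccl3 and Ccl4) and 2 below (Ccl6 and Ccl8), with a median of -0.44, and its sum was 12800, 7840, 9920 and 3310 CPM. Iron and heme genes gave 2 above and none below of 10, with a median of 0.05. Besides Slc40a1 the second gene above was Hmox1, heme oxygenase 1, at 19.6 and 193 CPM in WT and 283 and 294 CPM in ERG CKO (log2 fold change 1.54, SE 0.81). In ERG CKO 1, a single cell held 29 of the 58 Hmox1 UMIs and 20 of the 39 Slc40a1 UMIs. The place of ERG CKO 1 above WT 2 in Hmox1 rests on that cell. Haemoglobin transcripts, a trace of red cells, numbered 0 and 0 UMIs in WT members and 13 and 5 in ERG CKO members, and their part in the iron genes was not tested.

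The remaining lists are given by counts alone. Lysosome and lipid genes gave 3 above and 4 below of 27 (median 0.11), macrophage receptors 3 and 4 of 22 (0.08), and transcription factors 4 and 4 of 25 (0.25). Growth factors and matrix mediators gave 1 above and 2 below of 10 (median -0.15), and interferon-stimulated genes 1 and 0 of 6 (0.22). Interstitial macrophage markers gave 2 above and 1 below of 17 (median 0.24), of which 4 are genes of the rule; the other 13 gave 2 and 1 with the same median. Csf1r, also of the rule, is among the macrophage receptors, whose other 21 genes had a median of 0.09. Of the subtype markers, MHC II-type genes gave 5 above and 1 below of 14 (median 0.45) and Lyve1-type genes 1 and 0 of 5 (-0.30). No cell cycle gene had enough counts to be tested, and the list stood at 108 to 342 CPM.

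Among markers of other cells, the endothelial list summed to 147 and 159 CPM in WT members and to 381 and 480 CPM in ERG CKO members, with 3 of 13 genes at 0 in every library. Its 1 tested gene was Cd93, a receptor shared by endothelium and myeloid cells, at 78.5 and 45.3 CPM in WT and 200 and 372 CPM in ERG CKO (log2 fold change 2.19, SE 0.61; edgeR adjusted p = 0.902). Without Cd93 the sums of this list overlapped between the groups. Cd93 was also seen in 46.6% of classical monocytes, and Pecam1, an adhesion molecule of endothelium that was seen in 43.1% of non-classical monocytes too, overlapped at 9.81, 79.3, 112 and 15.5 CPM. Fibroblast and mural markers summed to 206 and 329 CPM in WT and to 278 and 201 CPM in ERG CKO. The part of free endothelial RNA in Cd93 and Vcam1 was not tested; in alveolar macrophages of the same libraries Vcam1 stood at 1.62 to 6.53 CPM.

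The ERG CKO effect in interstitial macrophages was then set against that in alveolar macrophages of the same mice, with the library as a block and edgeR's test of the cell type by genotype interaction. Of 8794 genes, 18 (0.205%) passed an adjusted p of 0.05. The effect was higher in interstitial macrophages for 9 (0.102%) and lower for 9 (0.102%). In alveolar macrophages alone, edgeR called 0 of 9176 genes, with 549 at an unadjusted p under 0.05. The fit used 1 dispersion per gene for both classes, although the common biological coefficient of variation was 0.347 in interstitial and 0.132 in alveolar macrophages. On simulated counts it recovered 39 of 196 genes changed 8-fold.

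Ccl3 differed by 4.27 on the log2 scale (SE 0.63; edgeR adjusted p = 7.03e-08): alveolar macrophages stood at 186 and 192 CPM in WT and at 249 and 85.2 CPM in ERG CKO, which overlapped. It was called under each of 9 alternative settings, with values of 3.72 to 4.85. Ccl4 (3.82), Hspa1b (4.04), Rgs1 (1.83) and Apoe (1.70) were also among the 9 genes with a higher effect in interstitial macrophages. For Apoe the members stood at 11095 to 27532 CPM with overlap between groups, and the alveolar values, 59.3, 102, 20.1 and 56.8 CPM, lay lower in ERG CKO.

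The 5 called genes with the greatest absolute difference had few counts on at least 1 side. Hes1 differed by 6.65 (SE 0.96) and Cbr2, a carbonyl reductase, by 5.07 (SE 0.91). In both, alveolar macrophages of WT 2 stood far from the other 3 libraries: 56.8 against 0.933 to 3.24 CPM for Hes1 and 267 against 3.15 to 5.51 CPM for Cbr2. H2-M2 differed by 6.08 (SE 1.44), with at most 3.44 CPM in alveolar macrophages, and was called in 5 of 9 alternatives, with values of 3.16 to 12.39.

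The negative differences belonged to Il6 and Ccl24. Il6, the cytokine interleukin 6, had 19 and 2 UMIs in WT members and 0 in both ERG CKO libraries, where 3 UMIs would be 14.6 and 46.5 CPM; alveolar macrophages stood at 60.6, 67.7, 87.2 and 28.4 CPM. Its fitted difference of -10.27 depends on how a count of 0 is treated and is no bound. Ccl24, an eosinophil attracting chemokine, had 10 UMIs in WT 2 and 2 in ERG CKO 1, and appeared in alveolar macrophages of ERG CKO 2 only, at 26.8 CPM, with all 51 UMIs in 1 cell (difference -8.19). When each gene's top cell was dropped from every library 6 genes were called, and without ERG CKO 1, 3 were.

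The study reported S100a9, Igf1, Ccl6 and Mmp9 as fibrogenic mediators that were higher in immune cells, macrophages and neutrophils, of ERG CKO lungs. It compared cells of its own clusters, which are not the members chosen here. The levels of these genes in interstitial macrophages follow. S100a9, a neutrophil alarmin subunit, stood at 0 and 0 CPM in WT and at 142 and 31.0 CPM in ERG CKO, but 28 of its 31 UMIs lay in 1 cell of ERG CKO 1, and it had too few counts for the test. Igf1, insulin-like growth factor 1, stood at 255 and 181 CPM in WT and at 127 and 232 CPM in ERG CKO (log2 fold change -0.30, SE 0.51), with overlap. Its level in members exceeded the 53.4 to 123 CPM of alveolar macrophages in each library. Ccl6, a chemokine, stood at 638 and 374 CPM in WT and at 342 and 217 CPM in ERG CKO (log2 fold change -0.78, SE 0.45; edgeR adjusted p = 0.998), against 3709 to 4875 CPM in alveolar macrophages. Mmp9, gelatinase B, was seen in 3 members, 1 in each library other than WT 1, at 147, 19.5 and 15.5 CPM, and was not tested.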

How the data were processed

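The authors dissociated whole lungs with Liberase and DNase and made libraries on the 10x platform; the labels' processing notes name Cell Ranger 3.1.0 and mm10. They deposited a table of raw UMI counts of 20076 rows and 9363 cells, the values used here; 13 symbols with 2 rows were summed. Members came from a rule on these counts, and members and gene lists were chosen with earlier results of these data known. Member counts were summed per library and tested with edgeR 4.0.16 (TMM, filterByExpr, quasi-likelihood), since cells of 1 mouse are not replicates; the study compared cells. DESeq2 1.42.0 was an alternative. SE is the absolute log2 fold change over the square root of F. Shares were compared with exact permutation tests (scipy 1.17.1), doublets were called with Scrublet in scanpy 1.11.5 (65 of 9363 cells) and kept, and the fits were tested on simulated data.

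Libraries held 11263911 to 18646776 UMIs, with medians of 4611 to 4899 UMIs per cell. Replicates differed beyond sampling noise (chi-square over degrees of freedom 3.35 in WT and 3.07 in ERG CKO). The study's own filtered cell set was smaller, and its filter is not given in the sources used here. Comparison classes followed marker rules: alveolar macrophages 571 cells, non-classical monocytes 522 and classical monocytes 116, both monocyte classes with at most 2 C1q UMIs. The classical class held 186 cells before a Csf1r UMI was also asked for, after NK cell genes were seen in it.

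Genes named were the 10 with the smallest p, as under 10 were called (otherwise the 15 most changed each way), the 3 most abundant of each list, the rule's and study's genes, and the 5 greatest interaction differences. Others, such as Ms4a7, Cx3cr1, Ctsd, Itgb2, Mertk, Clec4n, Cd300a, Hmox1, Spic, Rgs1, Cxcl1 and Flt3, were named after their values were seen. The list genes Ifi211, Pclaf and Cebpd were not analysed here. Some results are not reported here.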

Additional observations from a re-analysis of the deposited data

Results flagged for a closer look

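The ERG CKO effect differed between interstitial and alveolar macrophages, by the interaction test itself, for 18 of 8794 genes (edgeR adjusted p of at most 0.05). On the log2 scale the difference was -10.27 for Il6, -8.19 for Ccl24, 6.65 for Hes1, 6.08 for H2-M2 and 5.07 for Cbr2. The Il6 value rests on 0 UMIs in both ERG CKO libraries of interstitial macrophages. The Ccl24 value rests on 10 and 2 UMIs in WT 2 and ERG CKO 1 members and on 51 UMIs in 1 alveolar macrophage of ERG CKO 2. The H2-M2 value ran from 3.16 to 12.39 and was called in 5 of 9 alternatives. The values of Hes1 and Cbr2 come with high alveolar levels in WT 2, and their range over 9 alternatives was 3.51 to 9.10 and 0.07 to 9.74. No group had enough libraries for a check of single outlying samples.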

How the results depend on the processing

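The count of genes called in interstitial macrophages, 0, moved to 17 without the filter on low counts (9 higher, 8 lower, of 11150), to 2 with DESeq2 and to between 0 and 40 when 1 library was left out, with 12 without WT 1, 40 without ERG CKO 1 and 9 without ERG CKO 2. It was 0 under each of the other 10 alternatives, 4 of them chosen after seeing the data. With the replicate number as a block, 17 genes were called (9 higher, 8 lower), Ccl3, Ccl4, Slc40a1, H2-M2, Vcam1, Phlda1, Cxcl13 and Cxcl2 among them. The replicate number coincides with sex in these libraries, but the labels tie no numbers to a pairing, and the deviations of same-numbered libraries correlated at 0.0879 over 1406 genes with only 2 pairs, so the numbers were not taken as pairs. The cause of these moves was not tested.

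The interaction count, 18, moved to 11 without the filter and to 6 with each gene's top cell dropped from every library, a setting chosen after seeing the data; leaving out a library gave 3 to 15, with 3 without ERG CKO 1 and 9 without ERG CKO 2. Of the values of called differences, 87 kept call and direction, 70 lost the call and 2 turned: Cxcl1 to -6.35 without ERG CKO 1 and Ccl24 to 0.29 without WT 2 (its lowest was -16.55, without ERG CKO 1). Of 62 named genes with a fitted value, 861 alternative values kept call and direction, 72 changed direction without a call on either side, 40 passed the threshold in the same direction and 1 changed direction and passed it, Plac8 to -7.18 without ERG CKO 1 (1.58 without ERG CKO 2, and at most 1.97, with at least 20 C1q UMIs). The share of cells was higher in ERG CKO by 0.193 to 0.597 percentage points under the 9 alternatives that kept all libraries, and by 0.219 to 0.411 when 1 library was left out. The difference in the Lyve1-type share ran from -15.1 to 9.94 when 1 library was left out, turning to 9.94 without WT 2, and was -6.25 with each cell thinned to 1000 UMIs.

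With 2 mice a group and 8 to 26 cells a mouse, the depth left 1406 of 20063 gene symbols testable, 1 UMI was worth up to 15.5 CPM, and the exact permutation tests could not go below 0.333. P-values measure the spread between mice that also differed in sex.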

Other observations

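The values that follow were chosen after they were seen. Mmp12, macrophage elastase, was seen in 19 members, at 432, 90.7, 669 and 294 CPM in WT 1, WT 2, ERG CKO 1 and ERG CKO 2, and Mmp13, collagenase 3, also in 19, with 9 members holding both. Adamdec1, a secreted protease of tissue macrophages, had 0 UMIs in both WT libraries and 23 and 4 UMIs in 6 and 2 cells of the ERG CKO libraries. Cxcl9, an interferon-induced chemokine, was confined to 2 of the 57 members, 1 in WT 2 with 37 UMIs and 1 in ERG CKO 2 with 16. Mt1, a metallothionein, stood at 3394 and 1609 CPM in WT and at 1054 and 588 CPM in ERG CKO (log2 fold change -1.55, SE 0.46; edgeR adjusted p = 0.902), against 1070 to 1453 CPM in alveolar macrophages. Arg1, a gene of alternatively activated macrophages, had 0 UMIs in members of every library, which allows up to 14.6 CPM in the deepest and 46.5 CPM in the shallowest.

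One ERG CKO 1 cell met the rule with 16 C1q and 12 Csf1r UMIs at 8674 UMIs in all, and held 20 Slc40a1 and 29 Hmox1 UMIs, 1 Spic UMI and no Cd74 UMI. The ERG CKO 2 cell with the most Slc40a1, 32 UMIs, held 212 C1q, 512 Cd74 and 7 Spic UMIs. The high Slc40a1 counts therefore came from cells that differed in their MHC class II genes.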
